A study of Caenorhabditis elegans with 2 samples.

Results

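The genes described here are the ceh genes of Caenorhabditis elegans, the numbered members of its homeobox family. They are the protein-coding genes of the Ensembl annotation of WBcel235 whose symbol is ceh followed by a number, and 63 of the 19973 protein-coding genes on the 6 nuclear chromosomes met that rule. The measurement is chromatin immunoprecipitation and sequencing (ChIP-seq) of NHR-76 in whole L1 larvae, the first larval stage, of strain OP203. That strain carries the mutation unc-119(ed3) on chromosome III and the transgene wgIs203, from which NHR-76 is made with GFP and FLAG fused to its C-terminus. The animals' sex is given as males and females pooled. The series holds 2 libraries, biological replicates 1 and 2, which form 1 group. The labels do not say whether the replicates came from separate cultures, and no untagged strain or other stage was analysed here. Both libraries come from 1 tagged strain, and the labels name the antibody only by the gene, not whether it bound the tag or NHR-76 itself, so tagged and endogenous NHR-76 cannot be told apart. The animals' age is given as unknown beyond the larval stage.

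Homeobox genes encode transcription factors that bind DNA through the homeodomain, and many ceh genes set the identity of particular neurons, muscles or epidermal cells. NHR-76 is a nuclear hormone receptor, a ligand-regulated class of transcription factor that is much expanded in nematodes, and it is known for a role in fat metabolism in the worm intestine. In ChIP-seq of whole animals, a site bound strongly in few cells and a site bound weakly in many cannot be told apart. The annotated 5' end of a worm gene is often the place where a spliced leader is joined to the transcript, so the start of transcription may lie further upstream.

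The deposited data are lists of regions, not reads. One list came from each library and one from the pooled reads of both, and each held 30000 regions, which the authors' listing describes as peaks together with background. A further, thresholded list held the strongest pooled regions, exactly those ranked above 249. The regions of the pooled list were 324 bp wide, and their median signal, in the peak caller's own units, was 10.3. Because the libraries differ in scale, signals are also given as multiples of the median region of their own list, and the weakest region in each list lay at 0.751 times the median in the pooled list, 0.720 in replicate 1 and 0.715 in replicate 2. Ranks run from 1 for the strongest region, and q is the deposited false discovery estimate. A region was linked to a gene where its summit, the middle of the region, lay within 1 kb of the gene's 5' end. Distances are signed, and negative ones lie upstream.

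No ceh gene had a thresholded peak within 1 kb of its 5' end (0 of 63), against 1.03% of all protein-coding genes. Counting every listed region, 30 of the 63 ceh genes (47.6%) had one within 1 kb in the pooled list, against 51.7% of all protein-coding genes. In replicate 1 the count was 30 (47.6%), against 51% of all genes, and in replicate 2 it was 35 (55.6%), against 50.9%. Only 15 ceh genes (23.8%) had such a region in all 3 lists, where 25.9% of all genes did, and 15 (23.8%) had none in any list, where 24.9% of all genes had none. These shares lie near those of all genes, and presence in lists of this length is common among all genes.

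The strength of the regions was likewise close to that of all genes in the pooled list and in replicate 2, and lower in replicate 1. Among the 30 ceh genes with a pooled region the median rank was 12810.5, with quartiles of 5289 and 20181, against a median of 12263 and quartiles of 5413 and 20242 over the 10328 protein-coding genes with a region. The median signal was 1.05 times the median region at the ceh genes and 1.07 times at all genes. The median rank was 15371.5 in replicate 1, against 12420 for all genes, and 12795 in replicate 2, against 12530. At q at or below 0.05, 1 ceh gene (1.59%) had a pooled region within 1 kb, against 2.51% of all genes. In any of the 3 lists, 3 ceh genes (4.76%) passed that q, against 6.9% of all genes. They were ceh-43 in replicate 1 (1.59% of the ceh genes, against 2.48% of all genes), ceh-38 and ceh-20 in replicate 2 (3.17%, against 5.45%), and ceh-38 again in the pooled list.

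**Figure D1:**
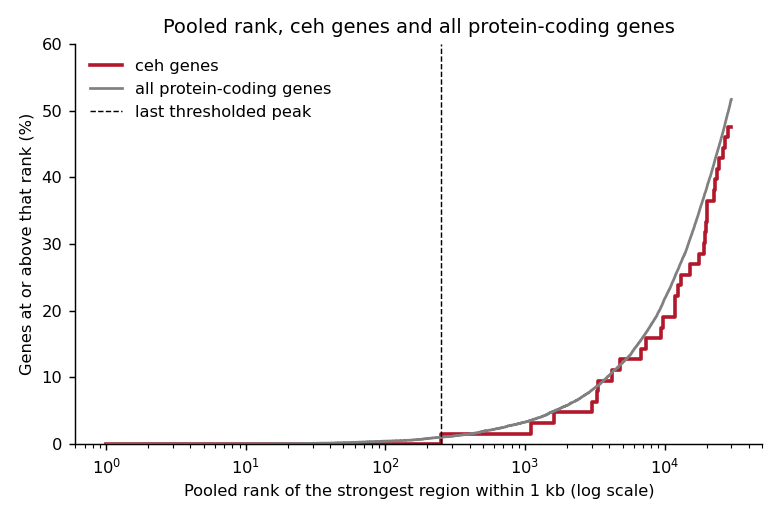
Share of genes (vertical axis, %) whose strongest pooled region within 1 kb of the 5' end reached the rank on the horizontal axis (log scale; rank 1 is the strongest), for the 63 ceh genes in red and all 19973 protein-coding genes in grey. The curve of the ceh genes starts at rank 249, just past the dashed line at the last thresholded peak, and ends at 47.6%, against 51.7% for all genes.

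The strongest region within 1 kb of any ceh gene belonged to ceh-38, a gene of the CUT class (ONECUT type) that is broadly expressed and, with its relatives, contributes to genes used by all neurons. The region lay at chrII:6951370-6951693, with its summit at 6 bp inside the annotated 5' UTR. Its pooled signal was 30.8, or 2.99 times the median region, at rank 249 and q 0.0101. That rank is the first outside the thresholded list: the region at ceh-38 had 2.99101 times the median and the weakest peak of that list had 2.99464 times. In replicate 1 the region at ceh-38 stood at 1.58 times the median region, rank 3046 and q 0.178, with its summit at 18 bp. In replicate 2 it stood at 2.77 times, rank 320 and q 0.0047, with its summit at -20 bp. The mean over the libraries was 2.17 ± 0.842 times the median (SD, n = 2), so the libraries overlapped in place and differed in strength. The next 5' end from the summit is that of malt-1, at -232 bp on its own strand, so the region, which spans the 5' end of ceh-38, also lies within 1 kb of that of malt-1. A further pooled region of ceh-38 lay at 484 bp, also in its 5' UTR, at 1.64 times the median and rank 2278.

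The sequences beneath 5 pooled regions are shown. Those of ceh-38 and ceh-99 are the strongest. Those of ceh-20 and ceh-43 belong to genes with a region at q at or below 0.05 in a library, and that of ceh-14 held a word 2 times. They were chosen after their values were seen. Each is the part within 75 bp of the pooled summit that is not UTR, read 5' to 3' on the gene's strand from the RefSeq genome of WBcel235 (the same assembly as ce11). Capitals mark matches on either strand to 6 fixed words. The first is AGGTCA, the classical half-site of nuclear receptors. The next is AGTTCA, a variant of that half-site. Others are TGATAA, which GATA factors bind, the GC box word GGGCGG, and the repeat GAGAGA, whose matches may overlap each other. The last is TAATTA, a homeodomain core that is its own reverse complement. The window of ceh-38 is cut to 69 bases at its 5' end (chrII:6951457-6951525, plus strand), that of ceh-99 is at chrII:12519140-12519290 (plus), that of ceh-20 at chrIII:6978936-6979086 (plus), that of ceh-14 at chrX:7533265-7533415 (minus) and that of ceh-43 at chrIII:4450703-4450853 (minus).
ceh-38: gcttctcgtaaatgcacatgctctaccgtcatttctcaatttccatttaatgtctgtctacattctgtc
ceh-99: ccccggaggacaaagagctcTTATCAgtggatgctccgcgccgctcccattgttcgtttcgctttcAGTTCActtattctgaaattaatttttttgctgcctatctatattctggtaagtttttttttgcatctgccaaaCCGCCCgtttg
ceh-20: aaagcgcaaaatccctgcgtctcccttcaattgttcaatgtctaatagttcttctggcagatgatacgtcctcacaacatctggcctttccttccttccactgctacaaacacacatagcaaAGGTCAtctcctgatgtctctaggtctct
ceh-14: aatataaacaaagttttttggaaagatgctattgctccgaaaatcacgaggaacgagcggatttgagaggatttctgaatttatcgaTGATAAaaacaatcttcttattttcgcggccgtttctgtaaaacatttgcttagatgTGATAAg
ceh-43: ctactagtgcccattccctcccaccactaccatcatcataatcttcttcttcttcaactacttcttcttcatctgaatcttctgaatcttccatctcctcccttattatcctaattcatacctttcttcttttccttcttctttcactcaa
The windows of ceh-38 and ceh-43 held none of the words. The nuclear receptor word AGGTCA stood in that of ceh-20, on the gene strand. That window is centred on the pooled summit at -873 bp, which had q 0.322. The replicate 2 summit that passed q 0.05, at -972 bp, lies outside the window. The window of ceh-14 held the GATA factor word 2 times on the gene strand. That of ceh-99 held the variant half-site on the gene strand and, on the other strand, the GATA factor word and the GC box word.

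The other CUT genes had weak regions near their 5' ends. Of the 6 CUT members, 4 had a pooled region within 1 kb, 3 had one in all 3 lists and 2 had none in any list. Of all protein-coding genes 51.7% had a pooled region, 25.9% had one in all 3 lists and 24.9% had none. These are the shares to set beside the counts of each class, here and below, and the classes are small. ceh-39, an X-linked signal that helps count X chromosomes in sex determination, had a region at -189 bp with 1.08 times the median region in the pooled list, 0.760 in replicate 1 and 0.809 in replicate 2. ceh-41 had 0.838 times the median in the pooled list at -372 bp, 0.985 in replicate 1 at -386 bp and 0.745 in replicate 2 at another place, 331 bp. ceh-49 had 0.803 times the median in the pooled list and 1.34 in replicate 2, with summits at -9 and -20 bp, and none in replicate 1. ceh-21 and ceh-48 had none within 1 kb in any list. ceh-48, a CUT gene of all neurons, had an upstream region in replicate 2 at -2295 bp, with 2.58 times the median, rank 403 and q 0.00373, and its pooled counterpart at -2291 bp stood at 1.06 times and rank 12736.

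The 3 sine oculis class members all had a region within 1 kb in some list, where 24.9% of all protein-coding genes had none. ceh-34, which specifies the pharyngeal nervous system, had the third strongest region of the family, at chrV:5319325-5319648 in its 5' UTR, with the summit at 90 bp. Its signal was 1.77 times the median region in the pooled list (rank 1601, q 0.168), 1.52302 in replicate 1 and 1.51418 in replicate 2, a mean of 1.52 ± 0.00625 (SD, n = 2). Among the 11 ceh genes whose pooled region both libraries overlapped, that was the smallest SD. ceh-32, a gene of the same class that acts in the head, had 0.944 times the median in the pooled list at -312 bp and 0.858 in replicate 2 at -337 bp, while the 1.15 in replicate 1 lay elsewhere, at 258 bp. It had a stronger region in its 3' UTR at 3408 bp with 1.68 times the median in the pooled list and 1.87 in replicate 2 (q 0.0343). ceh-33, whose 5' end lies 5089 bp from that of ceh-34, had a region in replicate 1 only, at 850 bp with 0.866 times the median.

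Of the 3 TALE members, which encode PBX-type partners of Hox proteins, 1 had a pooled region within 1 kb. That was ceh-20, a cofactor of the worm Hox genes, with a summit at -873 bp, 1.53 times the median region, rank 3017 and q 0.322. In replicate 2 it had 2.51 times the median at -972 bp, rank 452 and q 0.00775, and in replicate 1 no region was listed within 1 kb. ceh-20 also had a region at -3017 bp in replicate 2 with 1.84 times the median and q 0.0373. ceh-40 and ceh-60 had none within 1 kb in any list, although ceh-60, which promotes yolk production in the intestine, had 6 pooled regions in its body and the 5 kb upstream, at 0.760 to 1.30 times the median.

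Among the 8 PRD class members, 3 had a pooled region within 1 kb and 4 had none in any list, against 51.7% and 24.9% of all genes. ceh-37, an OTX-type gene that acts in olfactory neurons, was the 1 member of the class with a region in all 3 lists. Its pooled summit lay at 110 bp in the 5' UTR, and it had 1.51 times the median in the pooled list, 1.71 in replicate 1 and 1.40 in replicate 2 (mean 1.55 ± 0.222, SD, n = 2). The library regions both overlapped the pooled one, with summits at 119 bp in replicate 1 and, in an intron, at 295 bp in replicate 2. ceh-36, the related gene that specifies olfactory and gustatory neurons, had a region in replicate 2 only, with 1.06 times the median at -505 bp. ceh-10, which with the LIM gene ttx-3 specifies the AIY interneuron, had 1.15 times the median in the pooled list at 174 bp and 1.05 in replicate 2. ceh-53 had 0.898 in the pooled list and 0.779 in replicate 2. ceh-8, ceh-17, ceh-45 and ceh-54 had none within 1 kb.

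ceh-14, the LIM class member, which acts in thermosensory and other neurons, had a region at -608 bp with 1.42 times the median in the pooled list (rank 4179) and 1.52 in replicate 1, at the same distance, and none in replicate 2 within 1 kb. Replicate 2 listed a region at -3384 bp, with 1.81 times the median and q 0.0417. The POU members ceh-6, which is needed in the excretory system, and ceh-18, which acts in the gonadal sheath, had none within 1 kb in any list. The same held for 24.9% of all protein-coding genes. In its body of 14431 bp ceh-18 had 5 of its 6 pooled regions, the strongest in an intron at 1374 bp with 1.58 times the median, 1.47 in replicate 1 and 1.22 in replicate 2. ceh-13, the labial-type Hox gene and the 1 Hox member, had a region in replicate 2 only, at 833 bp with 0.948 times the median.

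The 9 NK-like members all had a region in at least 1 list, 6 of them in the pooled list and 3 in all 3 lists. The shares over all protein-coding genes were 51.7% in the pooled list, 25.9% in all 3 lists and 24.9% in none. ceh-22, which drives pharyngeal muscle genes, had 1.08 times the median in the pooled list at 705 bp, 0.775 in replicate 1 and 0.921 in replicate 2. ceh-28, which acts in a pharyngeal motor neuron, had 0.827 times the median in the pooled list at 560 bp (rank 24502) and 1.53 in replicate 2 at 511 bp. The region in replicate 1, with 1.34, had its summit at 848 bp and overlapped that pooled region only at its edge. It lay nearer to a weaker pooled region at 921 bp, with 0.774 times the median. Both library values were above the pooled ones, but they are not from 1 place. ceh-1 had 0.859 in the pooled list at -601 bp and 0.972 in replicate 2 at -542 bp, and in replicate 1 another region, at 965 bp, with 1.01. ceh-24, which acts in head motor neurons, had 1.15 times the median in the pooled list at 96 bp and 1.60 in replicate 1, and none in replicate 2. ceh-51, which acts in the early mesoderm, had the weakest pooled region of the family, with 0.769 times the median at rank 28635. ceh-5, ceh-7, ceh-9 and ceh-27 had one in 1 list each.

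Of the 10 further members of the Antennapedia superclass, 6 had a pooled region within 1 kb, 4 had one in all 3 lists, and each had one in at least 1 list. Among all protein-coding genes 51.7% had a pooled region, 25.9% had one in all 3 lists and 24.9% had none. ceh-43, the Distal-less gene of the worm, which acts in dopaminergic neurons and the anterior epidermis, had the largest ratio between the libraries, 1.86. It had 2.19 times the median in replicate 1 (rank 588, q 0.0417, at -845 bp), 1.18 in replicate 2 (rank 9423, at -555 bp) and 0.898 in the pooled list (rank 20186, at -835 bp). The library mean was 1.68 ± 0.717 (SD, n = 2), and the pooled list placed the gene below both libraries. The replicate 2 region overlapped the pooled one only at its edge, and it also overlapped a tRNA gene. The library values, their ratio and their mean are therefore not from 1 place. ceh-30, a BarH gene that keeps male sensory neurons alive, had 1.26 times the median in the pooled list at -419 bp, 0.795 in replicate 1 and 1.07 in replicate 2, and its neighbour ceh-31, 6848 bp away, had 0.790 in the pooled list at 206 bp, 0.915 in replicate 1 at 119 bp and, at another place, 0.717 in replicate 2 at 893 bp. ceh-19, which acts in a pharyngeal motor neuron, had 1.23 times the median in the pooled list at -12 bp and 1.30 in each library, but in replicate 1 that strongest region lay at 965 bp. At the place of the pooled region the libraries stood at 0.979 in replicate 1 and 1.30 in replicate 2 (SD 0.225, n = 2). ceh-16, the engrailed gene of the seam epidermis, had 0.910 in the pooled list at -789 bp and 1.46 in replicate 1.

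Of the 20 members placed in no class, 7 had a pooled region within 1 kb and 5 had none in any list, against 51.7% and 24.9% of all genes. ceh-99 had the second strongest region of the family, at -766 bp with 1.93 times the median in the pooled list (rank 1102, q 0.0994) and 2.03 in replicate 1 (rank 861, q 0.0517), and none was listed in replicate 2 within 1 kb. That region, whose sequence is given above, overlaps the microRNA gene mir-77 and the small nucleolar RNA gene T21B4.20. Its nearest protein-coding 5' end is that of srh-70, at -356 bp on that gene's strand, so ceh-99 was the 1 member of the 30 whose region was not nearest to its own 5' end. For the other 29 ceh genes (46% of the 63) the region was nearest to their own, as it was for 44.1% of all protein-coding genes, and 85.3% of those with a region. ceh-91 had 1.501 times the median in the pooled list at 339 bp and 1.15 in replicate 1 at that place, where the strongest region within 1 kb, at -409 bp, had 1.16. ceh-89 had 1.37 at -679 bp and 1.77 in replicate 2 (q 0.0501). ceh-90, with 1.06 times the median in the pooled list, and ceh-58 and ceh-83, the 2 unclassed members listed in all 3 lists, stood near the median region. ceh-58 had 1.05 times the median in the pooled list, 0.829 in replicate 1 and 1.26 in replicate 2, and ceh-83 had 0.995 in the pooled list, 0.862 in replicate 1 and 0.795 in replicate 2 at that place, with 0.920 at another place, 612 bp, in replicate 2.

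**Figure D2:**
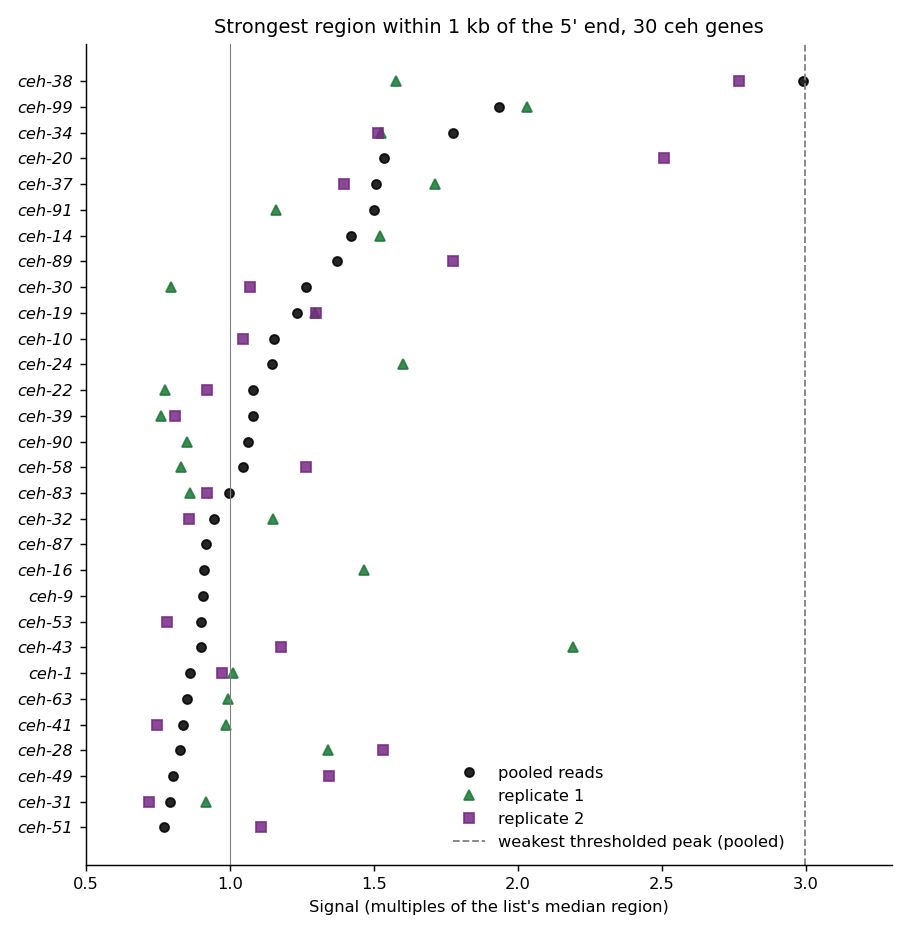
Strongest region within 1 kb of the 5' end of each of the 30 ceh genes with a pooled region, as a multiple of the median region of its list (horizontal axis), in pooled reads (black circles), replicate 1 (green triangles) and replicate 2 (purple squares); a missing symbol means no listed region. The dashed line is the weakest thresholded peak, at 2.99464 in the pooled list, and ceh-38 lies beside it, with the pooled values of the other 29 at 1.93 or below.

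The 2 libraries listed different sets of ceh genes, and the strongest regions compared here need not lie at the same place. Both had a region within 1 kb at 19 of the 63 ceh genes, against 5957 of the 19973 protein-coding genes. Replicate 1 alone had one at 11 ceh genes and replicate 2 alone at 16. Over all protein-coding genes, 10177 had one in replicate 1 and 10169 in replicate 2, so the libraries also listed different sets among genes at large. Among the 19, replicate 1 was higher at 8 and replicate 2 at 11. The larger library value was at the median 1.22 times the smaller, and at most 1.86 times. Across these 19 genes the values of the libraries had a Spearman rho of 0.579 and a Pearson r of 0.579 on the log2 scale, against 0.230 and 0.392 over the 5957 protein-coding genes with a region in both libraries. The values are from the same list pair, so depth and background are shared by all points. For 11 of the 30 pooled regions (36.7%) both libraries listed an overlapping region, against 32.6% of all genes with a pooled region, and for 3 (10%) neither did, against 9.76%.

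**Figure D3:**
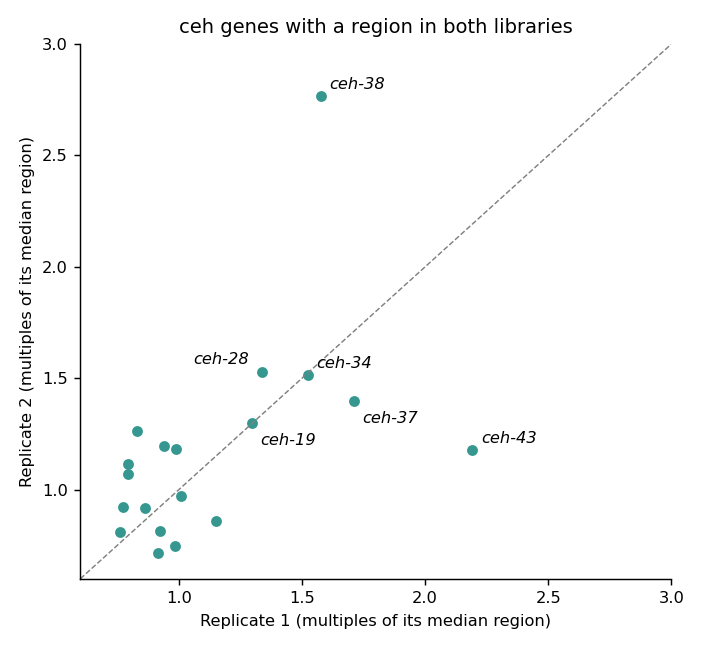
Strongest region within 1 kb in replicate 1 (horizontal axis) and replicate 2 (vertical axis), each as a multiple of the median region of its list, for the 19 ceh genes listed in both; the dashed line marks equal values. ceh-34 and ceh-19 lie on the line, ceh-19 with regions at different places, ceh-38 above it at 1.58 and 2.77, and ceh-43 below it at 2.19 and 1.18. The library regions of ceh-43 overlap only at their edges.

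In the pooled list, the side and the distance at which the regions lay differed little from genes at large. Of the 30 strongest pooled regions 17 were upstream (56.7%), against 52.7% for all genes, and the median distance was 390.5 bp, against 433 bp. In replicate 1 the upstream share was 43.3%, against 51.6%, and the median distance 433.5 bp, against 447 bp. In replicate 2 these were 57.1%, against 53.4%, and 505 bp, against 436 bp. The summits of the 30 pooled regions fell between genes in 13 cases, in a 5' UTR in 6, in an intron in 5, in a coding exon in 4, and in a 3' UTR and a non-coding exon in 1 case each. This split was not made for all genes. By the nearest summit, ceh-43 at 835 bp and ceh-53 at 853 bp were the last inside the limit of 1 kb, and ceh-84 at 1025 bp (rank 23827) and ceh-21 at 1130 bp (rank 2362) the first outside it. On the X chromosome, which holds 28.6% of the ceh genes and 13.7% of all genes, 11 of 18 ceh genes (61.1%) had a pooled region, against 52.7% of all X-linked genes. On the autosomes 19 of 45 did (42.2%), against 51.6%. The libraries differed in this: in replicate 1 it was 10 of 18 ceh genes on X (55.6%) and 20 of 45 on autosomes (44.4%), but in replicate 2 it was 9 of 18 on X (50%) and 26 of 45 on autosomes (57.8%). Of all protein-coding genes, 51% had a region in replicate 1 and 50.9% in replicate 2. Those shares were not split into X and autosomes for the single libraries. In the pooled list the share was lowest on chromosome I, with 1 of 8 ceh genes (12.5%), against 53.1% of the genes there.

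Over the gene body and the 5 kb upstream, 52 of 63 ceh genes (82.5%) had a pooled region, against 88.5% of all genes. In replicate 1 it was 55 (87.3%), against 88.3%, and in replicate 2 it was 58 (92.1%), against 88.6%. The pooled list had 144 such regions, 55 in gene bodies and 89 upstream, or 2.69 per 10 kb, against 3.13 per 10 kb for all genes. At q at or below 0.05, 3 ceh genes (4.76%) had a region in this span in the pooled list, against 6.07% of all genes, 4 (6.35%) in replicate 1, against 6.77%, and 8 (12.7%) in replicate 2, against 15.2%. In any list it was 9 ceh genes (14.3%), against 18.7% of all genes. The 1 ceh gene with no region there in any list (1.59%, against 2.94% of all genes) was ceh-75.

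The 5 members with the strongest pooled region in this span were ceh-5, ceh-38, ceh-8, ceh-99 and ceh-22. Those of ceh-38 and ceh-99 are the regions within 1 kb given above, and the other 3 lay nearer to the 5' end of another gene. ceh-5, an NK-like gene, had the only thresholded peak of the family, at -4854 bp, with a pooled signal of 38.4, 3.73 times the median and rank 129. That is 1 ceh gene of 63 (1.59%), against 2.35% of all genes with such a peak in this span. In replicate 1 it stood at 4.65 times the median and rank 39. In replicate 2 the region at that place, at -4893 bp, stood at 1.09 times the median, and a stronger one at -4533 bp stood at 2.38 times and rank 569. The nearest protein-coding 5' end is that of eat-16, from which the pooled summit lies at -401 bp, and the region overlaps non-coding RNA genes. ceh-8, a Rax-type PRD gene, had a region in its 3' UTR at 5355 bp with 2.47 times the median in the pooled list (rank 446, q 0.0281) and 3.92 in replicate 2 (rank 105), and none there in replicate 1. That region lies at -630 bp from the 5' end of col-63, a collagen gene. ceh-22 had a region at -3785 bp with 1.83 times the median at rank 1391, nearer to twk-12.

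The CUT genes ceh-39, ceh-21 and ceh-41 stand side by side on the X chromosome, with 5' ends 3436 and 4061 bp apart, and share regions. ceh-39 had the most pooled regions of any ceh gene, 8 in its body and the 5 kb upstream, at 0.797 to 1.51 times the median. The strongest of the 8, at -2519 bp, overlapped a tRNA gene and lay nearest to the 5' end of T26C11.8. ceh-21, ceh-18 and ceh-60 had 6 each and ceh-38 had 5. Of the 144 regions, 137 were distinct, and 7 were counted for 2 members, 5 of them in this cluster and 2 at ceh-57 and ceh-58.

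**Figure D4:**
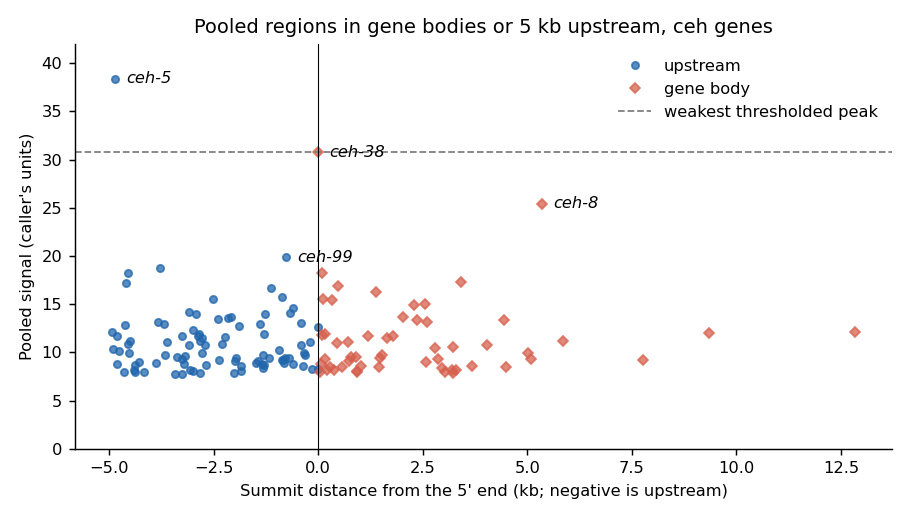
Pooled signal (vertical axis, the caller's units) of the regions in the bodies (orange) or 5 kb upstream (blue) of ceh genes, against the distance of the summit from the 5' end (horizontal axis, kb; negative is upstream). The dashed line is the weakest thresholded peak, at 30.8, and only the upstream region of ceh-5, at 38.4, lies above it.

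The share of the 30 windows with a word was near that of the whole list for 5 of the 6 words. The GC box word GGGCGG was present in 5 of the 30 windows of 151 bp (16.7%), against 3.13% of the windows of all 30000 pooled regions. The GC content was 40.7% on average in the 30 windows and 38.1% in all pooled windows, and whether it accounts for the word was not tested. The nuclear receptor half-site AGGTCA was in 1 window (3.33%, against 4.28%) and its variant in 2 (6.67%, against 9.96%). The GATA factor word was in 4 (13.3%, against 13.7%), GAGAGA in 3 (10%, against 10.6%) and the homeodomain core in 2 (6.67%, against 6.33%). These are descriptions with no test, and a match is not a bound site. GGGCGG stood in the windows of ceh-99, shown above, and of the 4 genes whose windows are given here to show its place: ceh-16 (chrIII:8621871-8622021, plus), ceh-19 (chrIV:7955950-7956036, minus), ceh-24 (chrV:13813309-13813402, plus) and ceh-39 (chrX:1856286-1856436, minus).
ceh-16: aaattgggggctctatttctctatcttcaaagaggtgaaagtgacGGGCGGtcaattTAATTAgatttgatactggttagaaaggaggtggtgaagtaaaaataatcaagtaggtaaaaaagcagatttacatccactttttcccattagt
ceh-19: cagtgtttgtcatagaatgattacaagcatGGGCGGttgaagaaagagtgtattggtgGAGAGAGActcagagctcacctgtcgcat
ceh-24: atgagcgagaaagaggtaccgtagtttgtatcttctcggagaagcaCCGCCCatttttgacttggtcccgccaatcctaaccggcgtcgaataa
ceh-39: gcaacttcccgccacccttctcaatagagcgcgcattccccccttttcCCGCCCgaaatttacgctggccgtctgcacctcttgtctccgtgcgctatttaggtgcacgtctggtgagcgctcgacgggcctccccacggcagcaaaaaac
The window of ceh-39 had the highest GC content of the 30, at 60.3%, and that of ceh-16 had 35.8%. None of these 4 genes was among the 5 with the strongest region.

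The 38 homeobox genes that carry other names, such as the Hox gene lin-39, gave lower counts than the ceh genes in the pooled list. Of the ceh genes 30 of 63 (47.6%) had a pooled region within 1 kb, against 14 of 38 (36.8%) of the other homeobox genes. The share of all protein-coding genes was 51.7%, above both. In any list, 3 ceh genes (4.76%) reached q at or below 0.05 within 1 kb, against 0 of the others and 6.9% of all genes. The strongest of the others was at lin-39, with 1.79 times the median at rank 1522 and 6 bp. The difference between these lists was not tested.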

How the data were processed

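Per the labels, both libraries were ChIP-seq of NHR-76 in whole L1 larvae after sonication. The deposited narrowPeak lists give each region a signal, the authors' peak caller's own value, and a −log10 q-value. Per the library listings deposited with them, the thresholded list came from an irreproducible discovery rate step. Which caller, aligner and threshold were used is not given in the sources used here, nor are read totals. Depth is therefore unknown, and no interval rests on it. The control file was not used here.

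Regions were joined to genes of Ensembl release 115 with Python 3.11.15, pandas 2.3.3, NumPy 2.4.6 and SciPy 1.17.1, after ce11 regions were checked to lie inside the WBcel235 chromosomes; figures used matplotlib 3.10.9. The joins were tested on simulated data. A gene's 5' end is its outermost annotated start. The members and lists were chosen with earlier results of these data known, and homeodomain classes come from textbook knowledge. Named are the 15 members with the strongest pooled region within 1 kb, those in all 3 lists or at q at or below 0.05, and those with the strongest or most regions in the wider span; other class members are named with their class. With 1 group no test was run. Alternatives were other distances, transcripts, links, q limits and lists.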

Additional observations from a re-analysis of the deposited data

How the results depend on the processing

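Of 28 alternatives, 20 gave a count within 1.5 times the one reported or a median rank within the spread between the libraries. These include 20 ceh genes with a pooled region within 500 bp and 40 within 2 kb, against 30 within 1 kb, and 11 with overlapping regions in both libraries, against 15 with any region in all 3 lists. Among the 15000 strongest pooled regions, 16 ceh genes had one within 1 kb, against 30 in the full list. A region in all 3 lists was found at 9 ceh genes within 500 bp and at 28 within 2 kb, against 15 within 1 kb. The counts at other distances and list lengths were not made for all protein-coding genes. They show only how the ceh counts depend on the setting. A region at q at or below 0.01 was found at 0 ceh genes, against 1 at 0.05. A thresholded peak was at 1 ceh gene once the body and 5 kb upstream were counted, against 0. With 1 kb upstream in place of 5 kb, the regions numbered 75, against 144. Leaving out either replicate gave 30 to 35 genes with a region and median ranks of 12795 to 15371.5. It also gave 1 to 2 genes at q at or below 0.05 and 151 to 156 regions in the wider span. The thresholded list was made from both libraries and was not remade for a single library. In its place the strongest regions of the remaining library were taken, as many as that list holds. In either case 0 ceh genes had such a region within 1 kb. All 144 regions had a counterpart in the ce10 list. No paired analysis was possible because the libraries form 1 group. Depth is unknown, and each library list stops at 30000 regions, so a region missing from one is only known not to be among its 30000.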
